A study of Rattus norvegicus with 6 samples.

Results

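FAO cells, a clonal and well differentiated line derived from the Reuber rat hepatoma, were set against rat liver, gene by gene, on 1 expression array each. A gene entered the comparison when its probe was well above background, by the scanner software's flag, on at least 1 of these arrays, and 11273 of the 19958 genes on the array did so. The FAO array held RNA pooled from 3 cultures that had received water, the vehicle of the iron chelator deferoxamine (0 µM), for 24 h in medium with serum. The liver array held RNA pooled from 6 Wistar rats fed the purified AIN-93G diet, which contains iron, for 4 weeks; the labels call the animals mice in places. The other 4 arrays of the study served as a second reading and for context: FAO cells given 100 µM deferoxamine over the same 24 h (3 cultures pooled), liver of rats whose diet lacked iron for 4 weeks, and kidney of the rats on both diets (6 animals pooled for each tissue and diet). The FAO line is 1 clone and grew without other liver cells, whereas the tissue was whole liver. The age and sex of the rats are not given in the sources used here.

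Hepatocytes make most proteins of the blood plasma and the lipoproteins, keep blood glucose up between meals, turn ammonia into urea, break down amino acids, make bile acids, and oxidise and conjugate foreign compounds. In adult liver they rarely divide. Their gene programme rests on a group of transcription factors, among them HNF4A, the FOXA factors and C/EBPα, and part of it depends on growth hormone and on other hormones that reach the liver through the blood.

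Values are the authors' log2 normalized signals, in which each array is set to its own 75th percentile. A level, as the word is used here, is that value turned back to a linear scale, in multiples of the array's 75th percentile signal. Differences are log2 of FAO over liver, and ± gives the standard error estimated from replicate spots of a probe, which covers spot noise only. With 1 array per group there was no replicate check and no test, and genes were called higher or lower by size alone, at 4-fold or more. Where a gene was not well above background on 1 of the arrays, its difference is a bound, written as at least N-fold. No order between different genes can be read from their levels, since each probe has its own brightness, and probes of near-identical genes (the Mup, Cyp2c, Ugt and Gst families) may read each other's RNA. The lowest level well above background was 0.0495 on the FAO array and 0.111 on the liver array.

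The arrays differed in ways that touch these results. Of 30367 probes, 48.4% were well above background on the FAO array and 40.1% on the liver array, and the 75th percentile signal behind the scaling was 981 on the FAO array and 243 on the liver array. Repeated spots departed from each other in 2 of 264 blocks of the FAO array and 13 of 264 of the liver array, and 362 called genes had a spot in such a noisy block. Of the genes named below these were Scd2, Cdk1, Gstp1, Nr1i2, Arg1, Tdo2, Gcgr, Pklr, Cyp3a2, Hamp, Hjv, Alas1, Slc7a11, Vil1 and Vim on the liver array and Pygl, Cyp2e1, Nop56 and Mx2 on the FAO array. Genes named below that were not called can have such spots too, as Hmgcs1, Hhex and Abcc2 did on the liver array. The iron-free liver array stood apart. Of 25 genes that had a level of at least 5 in deferoxamine-treated FAO cells and were not well above background on control liver or either kidney, 25 were well above background on the iron-free liver array. They stood there at a median of 6.35% of their deferoxamine-treated FAO level, within a range of 4.60% to 9.76%. Their low levels on control liver and kidney follow from how they were chosen and are no result. Against untreated FAO cells the share on iron-free liver was more scattered, with a median of 6.198% and a range of 2.27% to 37.7% over 23 genes. Mgarp, a mitochondrial protein, shows the pattern: its level was 32.4 in deferoxamine-treated and 6.52 in untreated FAO cells, 2.46 on iron-free and 0.111 on control liver, and 0.148 on iron-free and 0.0447 on control kidney. The source of these signals was not tested, and the main counts that rest on the iron-free liver array are given with and without it.

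**Figure D1:**
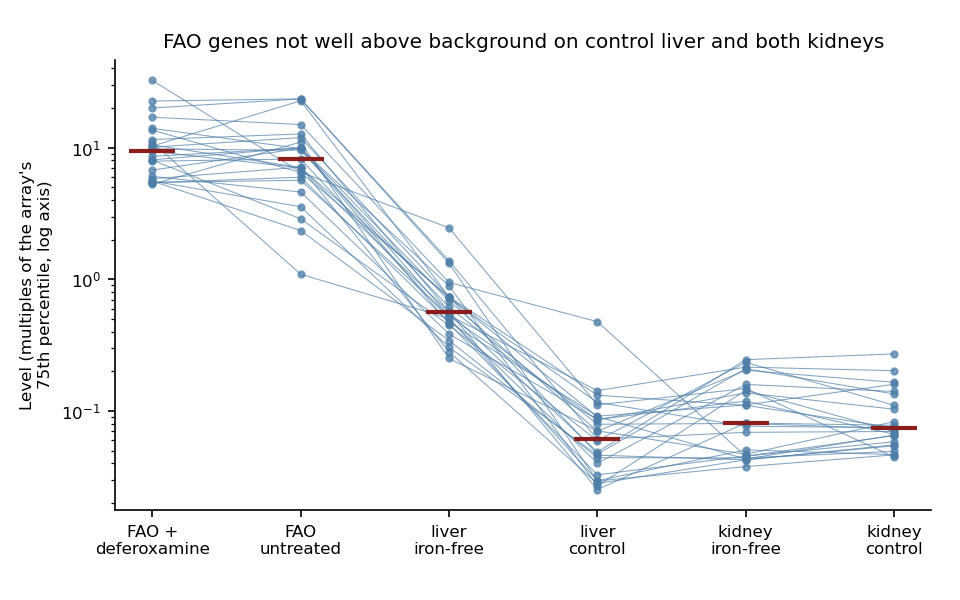
Level (multiples of the array's 75th percentile signal, log axis) on the 6 arrays of the 25 genes that had a level of at least 5 in deferoxamine-treated FAO cells and were not well above background on control liver or either kidney; each line is a gene and bars are medians. All 25 were well above background on the iron-free liver array, at a median of 6.35% of the deferoxamine-treated FAO level; their low levels on the other tissue arrays were the condition for choosing them.

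Across all 11273 measured genes, 1040 were higher in FAO cells than in liver by 4-fold or more (9.23%), and 1870 were lower (16.6%). These shares are the base against which the counts of each list below can be read. Of the genes called higher, 451 were well above background on both arrays and 589 were bounds. Of those called lower, 950 were well above background on both arrays and 920 were bounds. Among the 7632 genes well above background on both arrays the median difference was -0.07 with an SD of 1.75 across genes, and 3959 of them lay within 2-fold (35.1% of all measured genes). The split of calls follows the scaling: 35.7% of calls were higher in FAO cells with the authors' scaling, 60.9% when arrays were set to the median of their detected probes and 53.6% when they were set to housekeeping genes. Those 2 scalings move every difference up by 0.67 and 0.48, so a negative difference smaller in size than that turns positive under them.

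**Figure D2:**
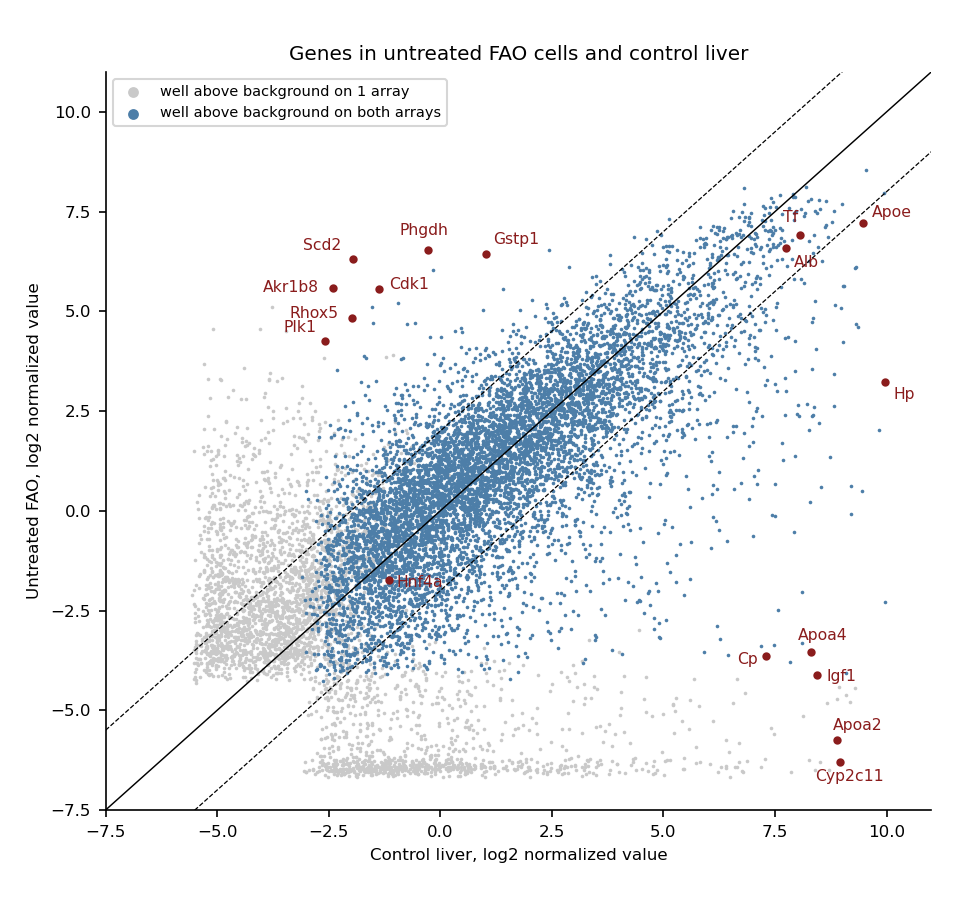
Authors' log2 normalized value of each measured gene on the untreated FAO array (vertical axis) and the control liver array (horizontal axis), with genes well above background on both arrays in blue and on 1 array in grey; the solid line marks equal values and dashed lines 4-fold. Akr1b8, Scd2, Phgdh, Cdk1, Rhox5, Plk1 and Gstp1 lie to the upper left and Cyp2c11, Igf1, Apoa2, Apoa4, Cp and Hp to the lower right, while Alb and Tf stay inside the dashed lines.

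The line was checked against hepatocyte markers first. All 12 hepatocyte markers were well above background on the FAO array and on the liver array, and 9 of them were called lower in FAO cells. Their summed level was 330.1 in FAO cells and 2268 in liver. Albumin (Alb), the main plasma protein, had a level of 96.0 in untreated and 103 in deferoxamine-treated FAO cells, against 339 on iron-free and 213 on control liver. Both FAO values lay below both liver values, within 4-fold of each. Of 15 kidney tubule markers, 3 were measured and 0 were called. In bulk RNA, fewer cells of a type and less RNA per cell cannot be told apart.

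Markers of macrophages, stellate cells and fibroblasts were nearly absent from the line. All 18 measured Kupffer cell and macrophage markers were called lower in FAO cells, where only Lyz2, lysozyme, was well above background, with a summed level of 0.661 in FAO cells and 209.8 in liver. C1qb, a chain of the first complement component made by macrophages, was not well above background in FAO cells, against 53.3 in liver, at least 1076-fold lower. Clec4f, a lectin of Kupffer cells, was not well above background in FAO cells, against 44.3 in liver, at least 894-fold lower. All 14 measured stellate cell and fibroblast markers were called lower (summed level 1.22 in FAO cells and 102.6 in liver), among them the collagen chain gene Col3a1, at least 316-fold. Sinusoidal endothelium markers were called lower in 11 of 16 instances, with 6 well above background in FAO cells and 14 in liver (summed level 2.33 in FAO cells and 40.7 in liver). Lymphocyte markers were called lower in 3 of 5. Cholangiocyte markers had 4 of 9 called lower, 6 well above background on each array and a summed level of 6.86 in FAO cells and 12.2 in liver. Erythroid markers were called lower in 6 of 7, with a summed level of 1.77 in FAO cells and 814.5 in liver; the α-globin gene Hba-a1 alone had 1.41 in FAO cells and 704 in liver. The part of these cells in the 1870 genes called lower was not tested.

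What the line shares with liver was measured through a set of genes chosen on arrays that the comparison does not use. Of 11135 genes, 445 (4%) were at least 8-fold higher in iron-free liver than in iron-free kidney, and 443 of them were measured between untreated FAO cells and control liver. Of these liver-enriched genes, 357 (80.6%) were called lower in FAO cells and 5 higher, whereas 1513 of the 10830 other genes (13.97%) were called lower. The median difference was -4.67 for the liver-enriched genes and 0.04 for the others. In FAO cells 129 of the 443 (29.1%) were not well above background. The set was chosen on whole liver and is not limited to hepatocyte genes. It holds 9 hepatocyte markers, but also 4 of Kupffer cells and macrophages, 4 of stellate cells and fibroblasts and 1 of sinusoidal endothelium. The part of those other cells in these counts was not tested. Without the iron-free liver array, with the set chosen on control liver and control kidney, 397 of 486 were called lower (81.7%) and 3 higher, at a median of -4.73; that set shares the control liver array with the comparison.

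**Figure D3:**
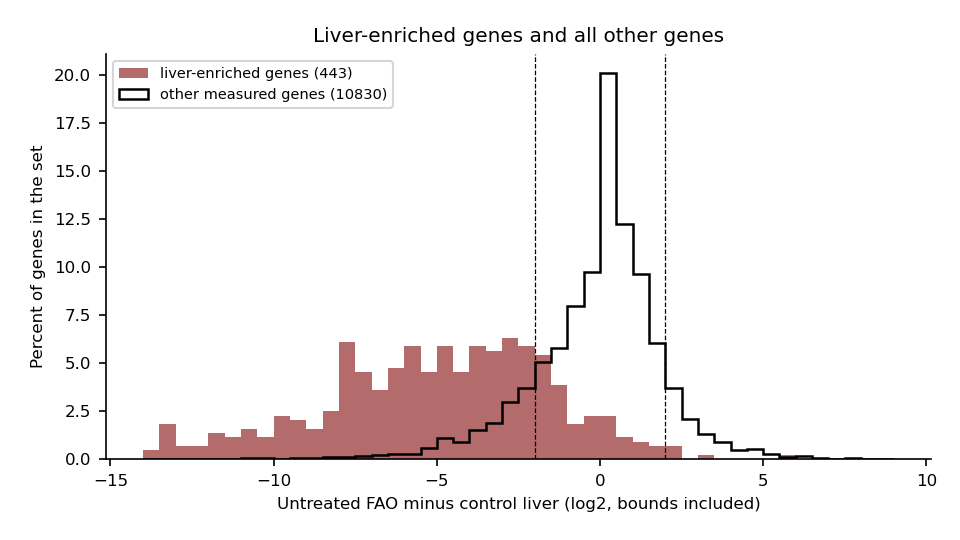
Distribution of the log2 difference between untreated FAO cells and control liver (bounds included, bins as percent of each set) for the 443 measured liver-enriched genes and the 10830 other measured genes; dashed lines mark 4-fold. The liver-enriched genes spread over the whole lower range, with 80.6% called lower, while the others peak near 0.

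The liver-enriched genes that FAO cells kept within 4-fold were of several kinds. Transferrin (Tf), the iron carrier of plasma, had 121 in FAO cells and 267 in liver (-1.14 ± 0.27). Creb3l3, a membrane-bound transcription factor of hepatocytes, had 25.2 in FAO cells and 86.4 in liver (-1.78 ± 0.27), and the fatty aldehyde dehydrogenase gene Aldh3a2 had 23.9 in FAO cells and 91.2 in liver (-1.93 ± 0.27). Keratin 18 (Krt18), a filament protein of simple epithelia, and Hmgcs1, of cholesterol synthesis, lay at 0.14 and 0.08; against iron-free liver Hmgcs1 was at -0.84. Histidine ammonia-lyase (Hal), the first step of histidine breakdown, was at -1.03 ± 0.27, and Dgat2, which makes triglyceride, at -1.06 ± 0.27. The 5 liver-enriched genes called higher in FAO cells formed no single group. Among them were Mgarp (at least 58.6-fold), the protease inhibitor α2-macroglobulin (A2m, 3.05 ± 0.30), the proteoglycan syndecan 1 (Sdc1, 2.21 ± 0.25) and the cadherin Cdh17 (2.19 ± 0.26). Mgarp, A2m and Sdc1 met the 8-fold line between liver and kidney on the iron-free arrays and not on the control arrays, where the difference was 2.20 for Sdc1, a bound of 1.80 for A2m, and Mgarp was not well above background in either tissue. Against iron-free liver 0 of the 5 were called higher, with 1.41 for Mgarp, 1.13 for A2m, 1.09 for Sdc1 and 0.20 for Cdh17.

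Promoters are printed for 3 liver genes at different points of this range. Alb was kept within 4-fold, Fabp1, a fatty acid carrier, was 9.21-fold lower in FAO cells but still at a level of 69.4, and Cyp2c11, the male-type steroid hydroxylase of rat liver, was not well above background in either FAO sample. The stretches run from 250 bases before to 50 after the gene start, from RefSeq on build GRCr8, each read on the gene's own strand: chr14:17906930-17907229 (minus strand) for Alb, chr4:104749090-104749389 (plus strand) for Fabp1 and chr1:246174966-246175265 (plus strand) for Cyp2c11. Capitals mark the letters GTTAAT, which some liver gene promoters hold, at -82 in Alb and -117 in Fabp1, and the TATA box TATAAA, at -40 in Fabp1 and -31 in Cyp2c11, counted from the gene start.
Alb: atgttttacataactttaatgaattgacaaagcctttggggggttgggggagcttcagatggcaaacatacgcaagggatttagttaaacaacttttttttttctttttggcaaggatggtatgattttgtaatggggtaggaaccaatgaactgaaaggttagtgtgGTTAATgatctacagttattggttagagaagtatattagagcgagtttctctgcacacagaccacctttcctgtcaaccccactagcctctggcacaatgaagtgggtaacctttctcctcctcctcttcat
Fabp1: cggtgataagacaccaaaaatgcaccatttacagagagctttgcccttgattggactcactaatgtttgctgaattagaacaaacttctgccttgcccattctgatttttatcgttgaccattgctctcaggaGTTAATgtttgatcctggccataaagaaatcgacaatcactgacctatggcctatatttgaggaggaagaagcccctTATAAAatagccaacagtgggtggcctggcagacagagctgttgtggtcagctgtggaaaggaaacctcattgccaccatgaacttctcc
Cyp2c11: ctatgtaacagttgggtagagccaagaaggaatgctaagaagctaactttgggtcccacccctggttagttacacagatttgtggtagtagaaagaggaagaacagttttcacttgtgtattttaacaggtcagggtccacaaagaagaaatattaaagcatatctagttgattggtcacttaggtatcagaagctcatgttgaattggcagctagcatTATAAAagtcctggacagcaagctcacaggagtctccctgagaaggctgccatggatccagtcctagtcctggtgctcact
Searched on both strands, GTTAAT stood in 39 of 281 promoters of liver-enriched genes called lower (13.9%) and in 5 of 61 of those not called lower (8.2%), against 4.78% of 8998 measured genes and 7.37% of all 27457 promoters. The C/EBP core TTGCNNAA stood in 58 of 281 (20.6%) and 14 of 61 (23.0%), against 8.82% of measured genes and 10.5% of all. TATAAA stood in 57 of 281 (20.3%) and 9 of 61 (14.8%), against 8.01% and 14.3%. With the set chosen on the control arrays, GTTAAT stood in 40 of 312 (12.8%) called lower and 6 of 62 (9.68%) not called lower, TTGCNNAA in 67 (21.5%) and 11 (17.7%), and TATAAA in 64 (20.5%) and 7 (11.3%). These are matches of letters, not sites shown to be bound.

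Of the factors that run the hepatocyte programme, 13 of 30 measured were called lower in FAO cells (43.3%, beside 16.6% of all measured genes). In this list 0 were called higher, and the median was -1.65. The xenobiotic receptors stood lowest. The pregnane X receptor gene Nr1i2 had 0.744 in FAO cells and 22.3 in liver (-4.91 ± 0.27), and the constitutive androstane receptor gene Nr1i3 had 0.117 in FAO cells and 2.79 in liver (-4.57 ± 0.89). Cebpa, which holds hepatocytes in a differentiated and resting state, had 0.103 in FAO cells and 1.53 in liver (-3.89 ± 0.64). Onecut1 and Onecut2, factors of liver development, were at -3.76 ± 0.27 and -3.84 ± 0.37, and the bile acid receptor gene Nr1h4 at -3.08 ± 0.38. Foxa1 was lower too, at -2.45 by its brightest probe and a bound of -4.69 by another. With arrays set to the median of their detected probes the former falls short of 4-fold. Some other central factors were nearer to liver. Hnf4a had 0.298 in FAO cells and 0.448 in liver (-0.59 ± 0.46) and Foxa2, unlike Foxa1, 5.43 in FAO cells and 2.63 in liver (1.05 ± 0.12). Gata4 (0.12), Ppara (0.26) and Hhex (-0.42) were also near their liver level, and the signs of Hnf4a and Hhex depend on the scaling. Gata4 was at -0.15 with normexp background correction.

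Plasma proteins had the lowest median of the 39 gene lists. Of 32 measured genes for albumin, carriers and protease inhibitors, 30 were called lower in FAO cells, at a median of -5.66, and Alb and Tf were the only ones not called. Obp3 and the Mup genes, urinary proteins of the α2u-globulin family made by rat liver, were at the far end. Obp3 had 0.206 in FAO cells and 995 in liver (-12.24 ± 0.53), and Mup4l4 was not well above background in FAO cells, against 628 in liver, at least 12698-fold lower. Vitronectin (Vtn), an adhesion protein of plasma, was not well above background in FAO cells, against 171 in liver, at least 3459-fold lower. Ceruloplasmin (Cp), the copper ferroxidase, had 0.08 in FAO cells and 157 in liver by its brightest probe, a difference of -10.94, while its other probes gave -5.00 and a bound of -5.83. Some members kept much more of their level. Transthyretin (Ttr), the thyroxine carrier, had 24.5 in FAO cells and 658 in liver (-4.75 ± 0.27). Fetuin A (Ahsg) had 49.5 in FAO cells and 527 in liver (-3.41 ± 0.27, and -1.45 by another probe), and the heme carrier hemopexin (Hpx) had 52.3 in FAO cells and 283 in liver (-2.43 ± 0.38). The list was thus graded, from -13.18 for urinary protein 2 (Rup2; a bound of -7.17 by another probe) to -1.14 for Tf.

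Apolipoproteins were uneven. Of 24 measured genes of lipoprotein handling, 19 were called lower and 2 higher (median -4.72). Apoa2, a main protein of HDL, had 0.0186 in untreated and 0.0166 in deferoxamine-treated FAO cells, neither well above background, against 353 on iron-free and 473 on control liver, at least 9554-fold lower. Apoa4 had 0.0855 in FAO cells and 315 in liver (-11.85 ± 1.01). Apoa1, the other main HDL protein, had 4.36 in FAO cells and 127 in liver (-4.86 ± 0.27), and Apob, the backbone of VLDL, had 5.71 in FAO cells and 135 in liver (-4.57 ± 0.27). Apoe stayed nearest to liver among the apolipoproteins proper, at 149 in FAO cells and 712 in liver (-2.26 ± 0.27). One of those called higher was the HDL receptor gene Scarb1, with 6.29 in FAO cells and 1.05 in liver (2.58 ± 0.39, and 0.89 by another probe).

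Clotting, complement and acute phase genes followed the plasma proteins. In the coagulation list 21 of 27 genes were called lower and 0 higher (median -4.73). Factor XII (F12) was not well above background in FAO cells, against 113 in liver, at least 2289.7-fold lower, whereas prothrombin (F2) had 55.7 in FAO cells and 273 in liver (-2.29 ± 0.27) and factor V (F5) 1.475 in FAO cells and 2.15 in liver. Fibrinogen kept part of its level in all its chains, with Fga at -5.56 ± 0.27, Fgg at -4.77 ± 0.27 and Fgb at -3.88 ± 0.27. Of 24 complement genes 20 were called lower (median -4.61), including C3, on which the pathways meet, with 25.5 in FAO cells and 637 in liver (-4.64 ± 0.27). Cd55, which protects a cell's own surface from complement, was the only member called higher, with 0.82 in FAO cells and not well above background in liver, at least 7.38-fold higher. Acute phase genes were called lower in 14 of 20 instances (median -5.17). Haptoglobin (Hp), which binds free hemoglobin, had 9.37 in FAO cells and 999.8 in liver (-6.74 ± 0.27), and serum amyloid A4 (Saa4) was not well above background in FAO cells, against 487 in liver, at least 9841-fold lower. The members called higher were A2m, with 6.03 in FAO cells and 0.728 in liver, and Reg3b, a secreted lectin, with 1.09 in FAO cells and not well above background in liver, at least 9.83-fold higher.

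**Figure D4:**
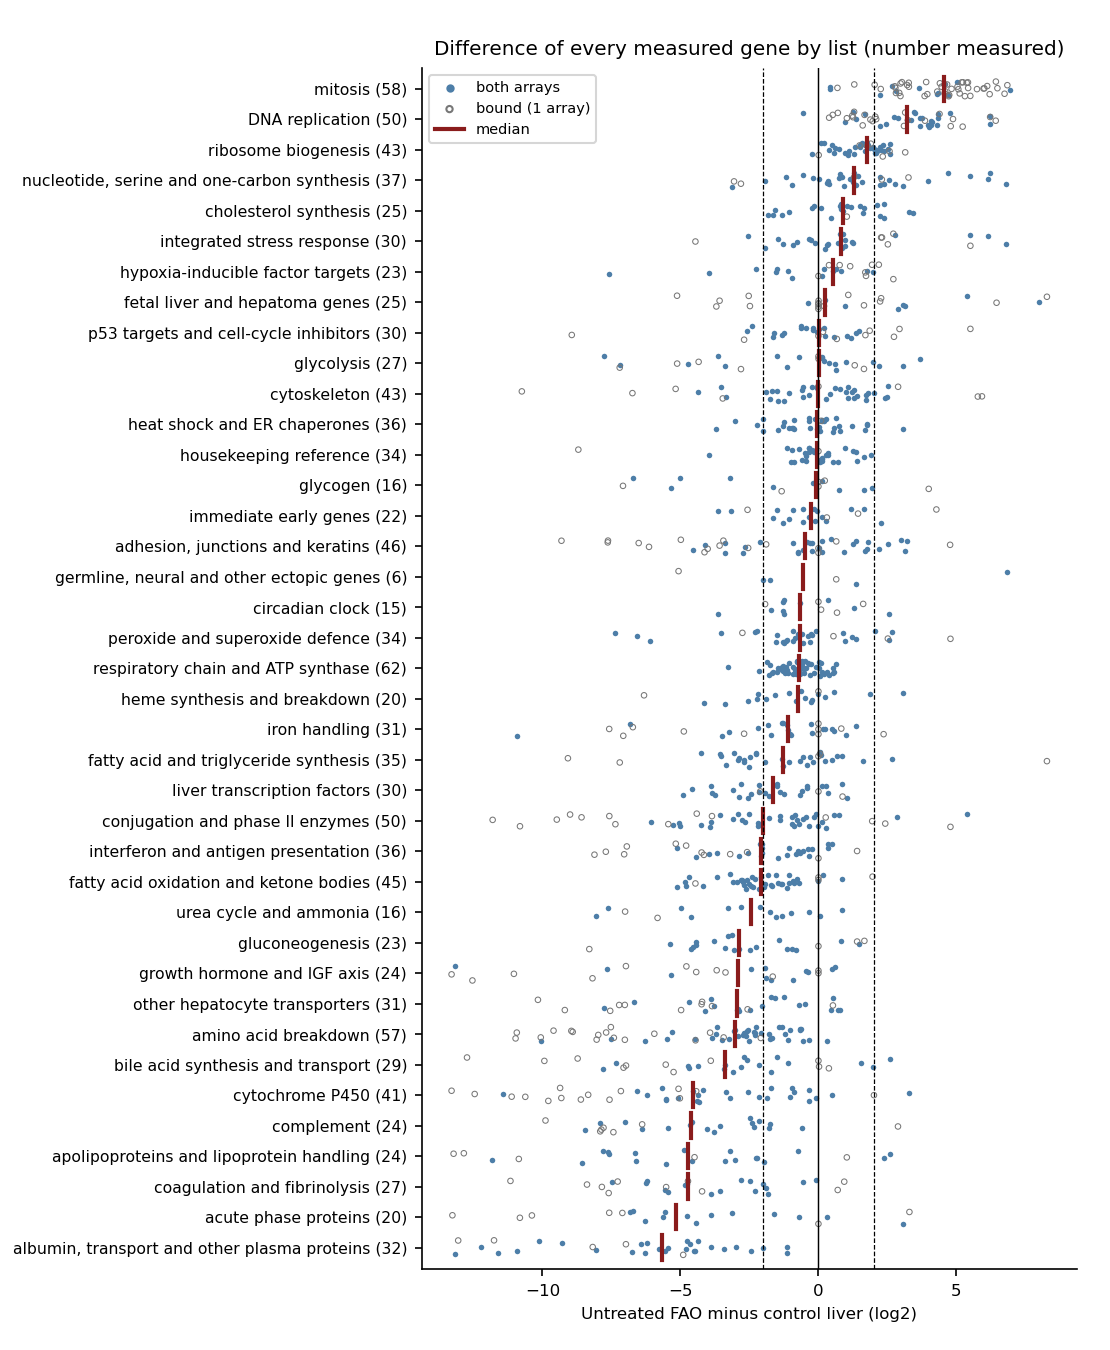
Log2 difference between untreated FAO cells and control liver of every measured gene in each of 39 gene lists, sorted by the list median; filled points are well above background on both arrays, open circles are bounds, red bars are medians and dashed lines mark 4-fold. Mitosis, DNA replication and ribosome biogenesis have the highest medians and the secreted and detoxifying functions the lowest, and the respiratory chain stays between the dashed lines except for 2 genes.

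Genes of nitrogen disposal were low at both ends of the urea cycle. In the urea cycle and ammonia list 9 of 16 genes were called lower and 0 higher (median -2.46). Ornithine transcarbamylase (Otc) had 0.112 in FAO cells and 30.1 in liver (-8.07 ± 0.64), arginase (Arg1) 0.64 in FAO cells and 128 in liver (-7.64 ± 0.13) and Cps1, which fixes ammonia, 0.202 in FAO cells and 6.43 in liver (-5.00 ± 0.38). The middle of the cycle was nearer to liver. Argininosuccinate synthase (Ass1) had 51.3 in FAO cells and 127 in liver (-1.31 ± 0.27), and the lyase (Asl) had 10.5 in FAO cells and 45.2 in liver (-2.11 ± 0.27). Amino acid breakdown genes were called lower in 43 of 57 instances and higher in 0 (median -3.01), and 17 of the 43 were bounds. Tryptophan dioxygenase (Tdo2) was not well above background in FAO cells, against 96.7 in liver, at least 1953-fold lower, and Hpd, of tyrosine breakdown, was not well above background in FAO cells, against 99.7 in liver, at least 2014-fold lower. Tyrosine aminotransferase (Tat), an enzyme that glucocorticoids induce, was less low, with 0.383 in FAO cells and 2.54 in liver (-2.73 ± 0.30). Mccc1 (-0.56) and Mccc2 (-0.35), of leucine breakdown, stayed within 2-fold of liver, at differences whose sign depends on the scaling.

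Genes of glucose production were low at most steps. Of 23 measured gluconeogenesis genes 14 were called lower and 0 higher (median -2.87). Pck1, the cytosolic PEP carboxykinase, had 1.84 in untreated and 3.37 in deferoxamine-treated FAO cells, against 25.2 on iron-free and 45.5 on control liver (-4.63 ± 0.27). Pck2, another form of that enzyme, went the other way within 4-fold, with 5.99 in FAO cells and 2.17 in liver (1.46 ± 0.26). Glucose-6-phosphatase (G6pc1), which releases free glucose, had 4.37 in FAO cells and 93.6 in liver (-4.42 ± 0.27), and fructose bisphosphatase (Fbp1) had 10.8 in FAO cells and 453 in liver (-5.39 ± 0.27). The glucagon receptor gene Gcgr was not well above background in FAO cells, against 15.6 in liver, at least 316-fold lower. Of 16 glycogen genes 5 were called lower (31.25%) and 1 higher (6.25%), at a median of -0.10, a sign that depends on the scaling. Of 27 glycolysis genes 9 were called lower (33.3%) and 3 higher (11.1%). Their median was 0.01, which was -1.20 against iron-free liver. Of all measured genes 16.6% were called lower and 9.23% higher. Both lists hold liver forms and general forms of the same enzymes.

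Set side by side, the liver forms of an enzyme were mostly lower in FAO cells and most other forms level or higher. A form dim in liver is measured only where FAO cells express it, and its bound cannot fall below 0. The liver pyruvate kinase gene Pklr had 0.72 in FAO cells and 18.98 in liver, 26.4-fold lower, and Pkm had 0.711 in FAO cells and not well above background in liver, at least 3.14-fold higher, which is under the 4-fold line. The same split was seen for glycogen. Liver glycogen phosphorylase (Pygl) was not well above background in FAO cells, against 8.09 in liver, at least 136-fold lower, and the brain form Pygb had 2.48 in FAO cells and not well above background in liver, at least 15.97-fold higher. Glycogen synthase showed -5.36 for the liver form Gys2 and 1.93 for Gys1, the form of muscle. Gys1 was not well above background in deferoxamine-treated FAO cells, which gave a bound of -0.65 against control liver and of -1.30 against iron-free liver. The glucose carrier Slc2a2 had 0.129 in FAO cells and 27.8 in liver, 216-fold lower, and Slc2a1 had 2.61 in FAO cells and 0.662 in liver (1.98 ± 0.14), just under the 4-fold line. Methionine adenosyltransferase gave -5.32 for the liver form Mat1a, while Mat2a was at least 2.35-fold higher (a bound of 0.00 by another probe). Stearoyl-CoA desaturase gave -3.52 for Scd, whereas Scd2 had 79.8 in FAO cells and not well above background in liver, at least 311-fold higher. The Scd difference varied with the liver array, as its level was 54.1 on iron-free and 328 on control liver. Deferoxamine-treated FAO cells against iron-free liver gave -0.24 for Scd. Among glutathione transferases the α-class gene Gsta2 was at -1.39 ± 0.27, and the π-class gene Gstp1, scarce in normal hepatocytes, had 86.2 in FAO cells and 2.05 in liver, 42.1-fold higher. There were exceptions. The liver phosphofructokinase gene Pfkl had 3.00 in FAO cells and 0.659 in liver, 4.55-fold higher, and Pfkp was not well above background in FAO cells, against 1.72 in liver, at least 34.8-fold lower. Lactate dehydrogenase gave -1.49 for Ldha, and Ldhb was at least 20.3-fold lower.

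**Figure D5:**
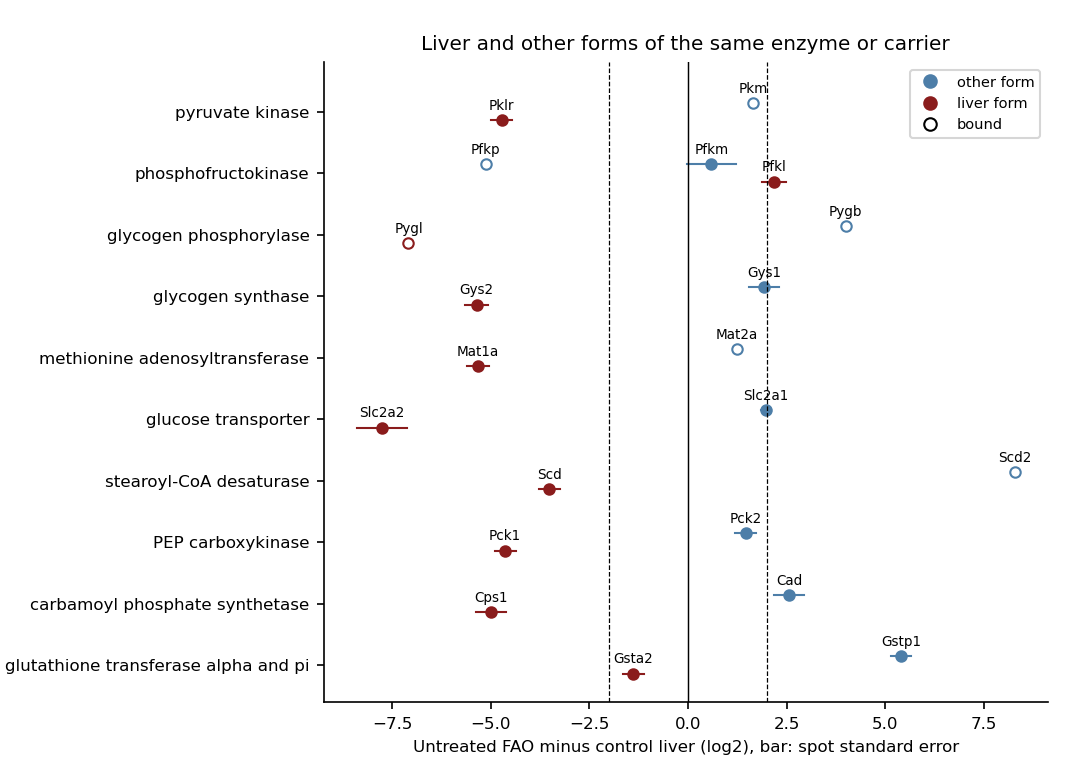
Log2 difference between untreated FAO cells and control liver for liver forms (red) and other forms (blue) of 10 enzymes or carriers; filled points carry the spot standard error, open points are bounds and dashed lines mark 4-fold. Among these 10, liver forms lie at -1.39 or lower except Pfkl at 2.19, and the other forms lie at 0 or above except Pfkp. The bounds of Pkm, Pygb, Mat2a and Scd2 could not lie below 0, since these genes were measured through FAO cells only. Hk3, Ldhb and Ak4, other forms called lower, belong to enzymes not shown.

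Detoxification genes were low, the P450 part more than the conjugation part. Of 41 measured P450 and partner genes 30 were called lower (73.2%, beside 16.6% of all measured genes) and 2 higher (median -4.53). Cyp2c11 had 0.0128 in untreated and 0.0102 in deferoxamine-treated FAO cells, neither well above background, against 299 on iron-free and 498 on control liver, at least 10053-fold lower. The steroid and drug hydroxylase gene Cyp3a2 was not well above background in FAO cells, against 109.9 in liver, at least 2221-fold lower. Cyp2e1, which oxidises ethanol, had 5.94 in FAO cells and 137 in liver (-4.53 ± 0.13). A few P450 genes were not low. Cyp2b2, which barbiturates induce in rat liver, had 5.97 in FAO cells and 6.27 in liver by its brightest probe (-0.07) and -2.66 by another. Cyp4f5 had 2.83 in FAO cells and 0.29 in liver, 9.75-fold higher. Of 50 conjugation genes 25 were called lower (50%) and 4 higher (median -1.996), and 32.0% lay within 2-fold, beside 35.1% of all measured genes. The sulfotransferase gene Sult1e1, which acts on estrogens, was not well above background in FAO cells, against 177 in liver, at least 3582-fold lower. The glutathione transferases Gsta1, Gsta4 and Gstt1 differed by -0.14, -0.09 and 0.29, and the signs of Gsta1 and Gsta4 depend on the scaling. The probes of Gsta3 disagreed, with 0.12 for the brightest and a bound of 7.09 for another. Ugt1a6, a glucuronidation gene whose family shares exons, had 54.9 in FAO cells and 70.2 in liver. The quinone reductase gene Nqo1 had 3.36 in FAO cells and not well above background in liver, at least 27.6-fold higher.

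Bile acid genes were called lower in 20 of 29 instances and higher in 1 (median -3.39). The uptake carrier for bile salts (Slc10a1) was not well above background in FAO cells, against 48.4 in liver, at least 977-fold lower, and the export pump (Abcb11) was not well above background in FAO cells, against 6.62 in liver, at least 134-fold lower. Slc27a5, which activates bile acids for conjugation, was not well above background in FAO cells, against 337 in liver, at least 6819.6-fold lower. Genes of bile acid synthesis were low as well. Cyp8b1 had 0.412 in FAO cells and 4.41 in liver and Cyp27a1 1.63 in FAO cells and 10.6 in liver. Cyp7a1, the rate-limiting enzyme, was not well above background on either array. Genes for the export of conjugates were nearer to liver or higher. The canalicular exporter gene Abcc2 had 7.96 in FAO cells and 22.6 in liver (-1.51 ± 0.11), and Abcc4, a basolateral exporter, had 1.80 in FAO cells and 0.297 in liver, 6.05-fold higher. Other hepatocyte transporters and receptors were called lower in 21 of 31 instances and higher in 0 (median -2.96), including the asialoglycoprotein receptor chains Asgr1 (-6.68 ± 0.31) and Asgr2 (at least 187-fold lower).

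Fatty acid genes were lower, both those of breakdown and those of synthesis, and cholesterol synthesis genes were not. Of 45 fatty acid oxidation and ketone body genes 23 were called lower and 0 higher, at a median of -2.08. Acadm, of medium-chain oxidation, had 9.98 in FAO cells and 77.6 in liver (-2.96 ± 0.13). Cpt1a, the gate of fatty acid entry into mitochondria, stayed within 4-fold, with 4.23 in FAO cells and 13.5 in liver (-1.67 ± 0.11). Of 35 fatty acid and triglyceride synthesis genes 15 were called lower (42.9%, beside 16.6% of all measured genes) and 2 higher (median -1.27). Thrsp, a regulator of lipogenesis, was not well above background in FAO cells, against 26.8 in liver, at least 541-fold lower, while fatty acid synthase (Fasn) had 14.2 in FAO cells and 54.7 in liver (-1.95 ± 0.27). In the cholesterol synthesis list 6 of 25 genes were called higher (24.0%, beside 9.23% of all measured genes) and 0 lower, at a median of 0.89 that lay between 0.02 and 1.55 under the alternatives tried. Mvd had 11.4 in FAO cells and 1.07 in liver (3.41 ± 0.28), and squalene epoxidase (Sqle) had 17.0 in FAO cells and 1.75 in liver (3.28 ± 0.28). These calls differed between the liver arrays: deferoxamine-treated FAO cells called 6 of the 6 higher against control liver and 0 against iron-free liver, where iron-free liver had 3.88 for Mvd and 10.1 for Sqle and deferoxamine-treated FAO cells had 14.8 and 28.3.

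The respiratory chain had 1 of the smallest shares of called genes. Of 62 measured subunit genes of the chain and of ATP synthase 41 lay within 2-fold (66.1%), 2 were called lower and 0 higher, at a median of -0.69. All 62 were well above background on both arrays. Of all genes well above background on both arrays 51.9% lay within 2-fold, and of all measured genes 35.1%. The genes called lower were Uqcrq (-3.29 ± 0.90) and Ndufa1 (-2.17 ± 0.27). Of 36 chaperone genes 4 were called lower (11.1%, beside 16.6% of all measured genes) and 1 higher (2.78%, beside 9.23%). The higher one was Cct2, a subunit of the cytosolic chaperonin (3.06 ± 0.28). The chaperone median was -0.04, a sign that depends on the scaling. Of 34 housekeeping genes 0 were called higher and 2 lower (median -0.05, likewise). One of them was B2m, the light chain of class I antigen (-3.95 ± 0.27). The other was Hprt1, which salvages purine bases, with 0.0136 in untreated and 0.0103 in deferoxamine-treated FAO cells, neither well above background, against 21.0 on iron-free and 20.6 on control liver, at least 416-fold lower. Hprt1 was thus not well above background on either FAO array and bright on every tissue array, with 14.6 on iron-free and 13.8 on control kidney.

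The growth hormone axis was called lower in 13 of 24 measured genes and higher in 0 (median -2.90). The receptor gene Ghr had 0.0837 in FAO cells and 16.8 in liver (-7.65 ± 1.01). Its targets in liver were lower too. Igf1, the circulating growth factor, was not well above background in FAO cells, against 345 in liver, at least 5954-fold lower, and Igfals, which keeps it in the circulation, was not well above background in FAO cells, against 6.23 in liver, at least 126-fold lower. Other parts of the axis stayed near liver: Stat5a, which carries the hormone's signal, had 1.90 in FAO cells and 1.26 in liver, and Igfbp1, an insulin-regulated binding protein, had 7.04 in FAO cells and 9.64 in liver. Igf2 was not well above background on either array.

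Iron and heme genes were called lower more often than all measured genes, and single members were called higher. In the iron list 10 of 31 genes were called lower (32.3%, beside 16.6% of all measured genes) and 1 higher (3.23%, beside 9.23%). Its median was -1.12. In the heme list 6 of 20 were called lower (30.0%) and 1 higher (5.00%), at a median of -0.74. Hepcidin (Hamp), the hormone by which liver restrains iron release, had 1.60 in untreated and 2.71 in deferoxamine-treated FAO cells, against 0.211 on iron-free and 182 on control liver. Untreated FAO cells therefore lay between the livers, at -6.83 ± 0.13 against control liver and 2.92 against iron-free liver. Hjv, a cofactor through which iron raises hepcidin, was not well above background in FAO cells, against 5.24 in liver, at least 106-fold lower. Ferritin chains lay within 4-fold, with Fth1 at -0.98 ± 0.27 and Ftl1 at -1.30 ± 0.27, and with quantile normalization both were above 0. The transferrin receptor gene Tfrc had 9.11 in untreated and 26.6 in deferoxamine-treated FAO cells, against 44.6 on iron-free and 3.53 on control liver (1.37 ± 0.28 by its brightest probe; another gave a bound of 0). Alas1, which starts heme synthesis in liver, had 8.85 in FAO cells and 156 in liver (-4.14 ± 0.27). Alas2, its erythroid form, was not well above background in FAO cells, against 3.95 in liver, at least 79.9-fold lower, beside globin genes that were also far lower. Flvcr2, a carrier of the heme list, had 4.13 in FAO cells and 0.491 in liver, 8.42-fold higher.

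Peroxide defence stood near all measured genes, with 5 of 34 called higher (14.7%, beside 9.23%) and 7 lower (20.6%, beside 16.6%), at a median of -0.66 that reached 0.00 under another scaling. Glutathione peroxidase 1 (Gpx1) had 2.57 in FAO cells and 427 in liver (-7.38 ± 0.13), and selenoprotein P (Selenop), the selenium carrier of plasma, had 2.04 in FAO cells and 139 in liver (-6.09 ± 0.27). Catalase (Cat) had 3.50 in FAO cells and 17.2 in liver, 4.91-fold lower. The genes called higher were thioredoxin reductase 1 (Txnrd1, 2.54 ± 0.30), sulfiredoxin (Srxn1, 2.68 ± 0.28), the mitochondrial peroxiredoxin Prdx3 (2.06 ± 0.27), the cystine carrier Slc7a11 (at least 5.72-fold) and the quinone reductase Nqo1.

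Cell division genes had the highest medians in FAO cells. Of 58 measured mitosis genes 54 were called higher and 0 lower (93.1%, beside 9.23% of all measured genes), at a median of 4.57, and 52 of them were called higher again by the iron-deprived pair and 52 by deferoxamine-treated FAO cells against control liver. Of the 54, 44 were not well above background in liver. Cdk1, the kinase that drives mitosis, had 47.5 in untreated and 51.2 in deferoxamine-treated FAO cells, against 3.82 on iron-free and 0.387 on control liver (6.94 ± 0.18). Plk1, a mitotic kinase, had 19.2 in FAO cells and not well above background in liver, at least 115-fold higher. Ccna2, the cyclin A2 gene, had 11.9 in FAO cells and not well above background in liver, at least 107.3-fold higher. DNA replication genes showed the same direction, with 34 of 50 called higher and 0 lower (median 3.22). Rrm2, a subunit of ribonucleotide reductase, had 66.2 in FAO cells and 0.891 in liver (6.21 ± 0.30), Mcm3, of the replicative helicase, 25.9 in FAO cells and 0.353 in liver (6.200 ± 0.53), and Pcna, the sliding clamp, 12.7 in FAO cells and 1.25 in liver (3.34 ± 0.28).

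The promoters of Cdk1 and Plk1 are printed because mitosis genes moved together and many share letters there. They lie at chr20:19265043-19265342 and chr1:186147408-186147707, both on the plus strand of RefSeq build GRCr8, from 250 bases before to 50 after the gene start. Capitals mark TTTGAA, the cell cycle homology region (CHR) of mitotic promoters, and CCAAT, which reads ATTGG on the other strand. In Cdk1 the CHR letters start at -72 and -16 and ATTGG at -210, -81 and -49, and in Plk1 TTTGAA starts at 6 after the gene start and CCAAT at -38.
Cdk1: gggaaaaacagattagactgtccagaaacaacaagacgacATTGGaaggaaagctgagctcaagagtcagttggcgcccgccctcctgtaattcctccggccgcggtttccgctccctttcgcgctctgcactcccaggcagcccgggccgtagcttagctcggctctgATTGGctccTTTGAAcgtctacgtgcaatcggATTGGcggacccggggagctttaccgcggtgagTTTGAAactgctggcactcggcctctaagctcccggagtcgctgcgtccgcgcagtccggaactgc
Plk1: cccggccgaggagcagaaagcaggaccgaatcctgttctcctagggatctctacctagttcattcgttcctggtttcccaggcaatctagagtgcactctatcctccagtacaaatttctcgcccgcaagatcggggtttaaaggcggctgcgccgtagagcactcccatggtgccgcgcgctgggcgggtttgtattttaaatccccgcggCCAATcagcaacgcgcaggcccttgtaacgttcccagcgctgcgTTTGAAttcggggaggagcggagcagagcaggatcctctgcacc
On either strand TTTGAA stood in 31 of 46 promoters of mitosis genes called higher (67.4%), against 12.3% of 8998 measured genes and 18.1% of all promoters, and CCAAT in 32 of 46 (69.6%), against 39.0% and 37.7%. The replication genes called higher had other letters: the E2F site GCGGGAA stood in 11 of 28 (39.3%), against 8.06% of measured genes and 4.47% of all, CCAAT in 15 (53.6%) and TTTGAA in 2 (7.14%).

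Genes of supply routes for growth were higher alongside. Of 37 nucleotide, serine and single-carbon synthesis genes 14 were called higher (37.8%, beside 9.23% of all measured genes). In that list 3 were called lower (8.11%, beside 16.6%), and the median was 1.28. Phgdh, the first enzyme of serine synthesis, had 93.0 in untreated and 66.7 in deferoxamine-treated FAO cells, against 5.14 on iron-free and 0.832 on control liver (6.80 ± 0.30). The next enzymes of the pathway were higher as well, Psat1 with 37.0 in FAO cells and 0.519 in liver (6.16 ± 0.37) and Psph with 7.64 in FAO cells and 0.489 in liver (3.97 ± 0.38). The mitochondrial folate enzyme gene Mthfd2 had 14.3 in FAO cells and 0.315 in liver (5.51 ± 0.21). Kidney, which makes serine in the rat, had 47.1 for Phgdh and 26.0 for Psat1 on the control array. Of purine and pyrimidine synthesis, Impdh1 (4.70 ± 0.38), Ctps1 (3.06 ± 0.28) and Cad (2.57 ± 0.38) were called higher; Cad is the pyrimidine counterpart of the urea cycle synthetase Cps1, which was 31.9-fold lower. Of 43 ribosome biogenesis genes 15 were called higher (34.9%) and 0 lower (median 1.77). Of these 15, 6 were called again by the iron-deprived pair and 8 by deferoxamine-treated FAO cells against control liver. The nucleolar protein gene Nop56 was at 2.53 ± 0.26 and the transcription factor gene Myc at 2.25 ± 0.12.

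The line also carried genes known from fetal liver and hepatoma. In that list 9 of 25 measured genes were called higher (36%, beside 9.23% of all measured genes) and 5 lower (20%, beside 16.6%). The median was 0.26 and ranged from 0 to 2.96 under the alternatives tried. The list has 37 genes on the array, of which 13 were well above background in liver, and 4 of the 9 called higher are bounds. The filter raises the share called higher, since a gene dim in liver is measured only where FAO cells express it. Akr1b8, an aldo-keto reductase, had the largest positive difference of the genes well above background on both arrays, with 48.0 in untreated and 45.1 in deferoxamine-treated FAO cells, against 2.88 on iron-free and 0.19 on control liver (7.98 ± 0.55). Its relative Akr1b7, which is not in the list, had 23.5 in FAO cells and not well above background in liver, at least 211-fold higher. Sox4, a factor of progenitor cells, had 4.59 in FAO cells and 0.516 in liver, 8.91-fold higher, and the surface glycoprotein gene Cd24 had 22.6 in FAO cells and 3.08 in liver, 7.33-fold higher. α-fetoprotein (Afp), the classical hepatoma marker, lay within 2-fold, with 13.9 in FAO cells and 18.2 in liver (-0.39 ± 0.25), a sign that depends on the scaling. H19 and glypican 3 (Gpc3), fetal liver genes often raised in hepatoma, were not well above background in FAO cells, at least 5.76-fold and 5.59-fold lower than in liver. Among 43 genes listed as germline, neural or otherwise ectopic, 6 were measured. Rhox5, a homeobox gene of the X chromosome, had 28.7 in FAO cells and 0.254 in liver (6.82 ± 0.45), while Nes (-2.01) and Maged2 (at least 33.6-fold) were lower.

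Surface genes were lower more often than all measured genes, and cytoskeleton genes stood near them. Of 46 adhesion, junction and keratin genes 18 were called lower (39.1%, beside 16.6%) and 6 higher (13.04%, beside 9.23%), at a median of -0.47 whose sign depends on the scaling. Of 43 cytoskeleton genes 7 were called lower (16.3%) and 6 higher (13.95%), at a median of 0.00. Junction genes of the hepatocyte border were among the lower ones. Cldn3, of tight junctions, was not well above background in FAO cells, against 31.5 in liver, at least 636-fold lower, and the gap junction gene Gjb1 had 0.762 in FAO cells and 5.03 in liver, 6.60-fold lower. The cadherin Cdh1 and the tight junction genes Tjp3 and F11r lay at -0.31, -0.23 and -0.24, within 2-fold of liver. Higher were Cd44, the hyaluronan receptor, with 4.22 in FAO cells and not well above background in liver, at least 27.3-fold higher, and annexin 2 (Anxa2), with 38.7 in FAO cells and 4.19 in liver, 9.24-fold higher. Villin (Vil1), a protein of microvilli, had 6.10 in FAO cells and not well above background in liver, at least 54.8-fold higher. Of 8 measured tubulin genes, picked out after their values were seen, 4 were called higher, beside 9.23% of all measured genes. They were Tubb6 (at least 60.8-fold), Tuba1b (2.53 ± 0.25), Tuba1c (2.47 ± 0.35) and Tubb5 (2.41 ± 0.27). Members of the cytoskeleton list that were called lower included Tmsb4x at -10.75, Tmsb10 at -6.74 and Myl9 at -5.17, bounds included. Vimentin (Vim), a filament protein of mesenchymal cells, was not well above background in FAO cells, against 0.865 in liver, at least 17.5-fold lower, beside the stellate cell and fibroblast markers (14 of 14 called lower), and the share of those cells in it was not tested.

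Interferon and antigen presentation genes were called lower in 21 of 36 instances and higher in 0 (median -2.07). Cd74, a class II gene of antigen-presenting cells, was not well above background in FAO cells, against 13.7 in liver, at least 278-fold lower. These genes moved with the macrophage markers (18 of 18 called lower), and the share of those cells in the difference was not tested. Among the other members called lower, B2m had 4.67 in FAO cells and 72.2 in liver. Mx2, an interferon-induced gene, had 7.68 in FAO cells and 56.1 in liver (-2.87 ± 0.27). The share of other liver cells in these was not tested either. The peptide loading genes Tap1 and Tap2 lay at 0.33 and 0.50.

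Of 30 integrated stress response genes 9 were called higher (30.0%, beside 9.23% of all measured genes) and 2 lower (median 0.82). Apart from the serine and folate genes above they included Gdf15, a stress cytokine, with 5.06 in FAO cells and not well above background in liver, at least 45.5-fold higher, and Asns, asparagine synthetase, with 3.21 in FAO cells and 0.471 in liver, 6.82-fold higher. Ddit3, a transcription factor of the response, stood at -0.33, a sign that depends on the scaling. Other regulatory lists stood nearer to all measured genes. The p53 list had 3 genes called higher (10.0%, beside 9.23%) and 4 lower (13.3%, beside 16.6%) of 30 (median 0.02). In it Cdkn1a, the cell-cycle inhibitor p21, had 11.05 in FAO cells and 65.7 in liver (-2.57 ± 0.27, and -1.35 by another probe). Targets of hypoxia-inducible factor had 2 called higher and 3 lower of 23 (median 0.53), clock genes 1 higher and 1 lower of 15 (median -0.66) and immediate early genes 2 higher and 3 lower of 22 (median -0.26). The sign of the immediate early median depends on the scaling, and the clock median reached 0 under one. Against iron-free liver the p53 and hypoxia medians were -0.21 and -0.15.

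Some of the genes called higher are also expressed in kidney. Of the 1040, 180 (17.3%) were not well above background on control liver and were well above it on both kidney arrays. The same share over all measured genes is not given here, so this count shows no trait particular to the genes called higher. Of 11135 genes, 544 (4.89%) were at least 8-fold higher in iron-free kidney than in iron-free liver. Of these, 248 were measured between FAO cells and control liver, 52 were called higher in FAO cells and 49 lower. The 52 are 21.0% of those measured, a share raised by the filter, since a gene dim in liver is measured mostly where FAO cells express it (198 of the 248 were well above background there), and 9.56% of the whole set. Without the iron-free liver array, the set chosen on control kidney and control liver had 96 of 279 called higher (34.4%, and 17.6% of its 544 genes); it shares the control liver array with the comparison, which favours genes low there. With normexp background correction the share of those measured was 10.5%. The iron-free liver array, on which genes bright in FAO cells had signals, also shapes its set. Phgdh and Slc25a4, called higher in FAO cells, gave -5.82 and -3.50 for liver over kidney on the control arrays. On the iron-free arrays they gave -2.80 and -2.48, short of the 8-fold line, whereas Psat1 met it on both (-5.65 and -3.20). The part of those signals in the shares was not tested. Of the 1040 genes called higher, 342 were not well above background on control liver or either kidney, and 321 of these were well above background in deferoxamine-treated FAO cells too. With the iron-free liver array counted as well, 143 were not well above background on any tissue array. For these counts too the share over all measured genes is not given. Lgals4, a galectin of gut epithelium, was among the 342, with 22.7 in untreated and 10.3 in deferoxamine-treated FAO cells, against 0.736 on iron-free and 0.0906 on control liver, and 0.0432 on iron-free and 0.0657 on control kidney.

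The second pair of arrays, deferoxamine-treated FAO cells against iron-free liver, shares no array with the first. There 925 of 11853 genes were called higher (7.8%) and 1950 lower (16.5%). Of the 1040 genes called higher in untreated FAO cells against control liver, 690 (66.3%) were called higher again, and of the 1870 called lower, 1477 (79.0%) were called lower again. Across 7422 genes measured on all 4 arrays the 2 differences had a Pearson correlation of 0.92, given as a description across genes, which are not independent. Without the iron-free liver array, deferoxamine-treated FAO cells against control liver called 875 of the 1040 (84.1%) and 1680 of the 1870 (89.8%) the same way; that difference shares the control liver array with the first. The pairs called 5 genes in opposite directions: Hamp, Asic1, Rita1l1, Slc25a31 and Vmn2r116l-ps38. Of these, Hamp alone was well above background on all 4 arrays. Akr1b8 and Cdk1, whose levels on the iron-free liver array were 2.88 and 3.82, had differences of 3.97 and 3.75 in the second pair and 7.98 and 6.94 in the first.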

How the data were processed

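Pooled RNA was hybridised to 6 one-colour Agilent rat arrays, 1 per group, per the labels. The intensity values are spot signals that Feature Extraction 10.7.3.1 had background-subtracted and detrended, per the file headers, which name build rn4. The log2 values are the authors' deposited normalized table; each column matched log2 of the processed signal minus that array's 75th percentile, so that the scale and direction are known. From these, differences were taken per probe, and each gene (by Entrez ID; 24272 probes with an ID, 6095 without) was read from its brightest measured probe; of 1742 genes with several probes, 279 had probes that were called by some and not by others, and 4 had probes called in opposite directions. Symbols were updated through RefSeq for 3525 genes. Calls were made at 4-fold, and bounds used the lowest level well above background on the dim array. With 1 array per group no test was made. The number of arrays limits the precision. Members and the 39 gene lists and 8 marker lists were chosen with earlier results of these data known. Named genes were the 10 largest measured and 6 largest bound differences each way, up to 3 called members each way and 2 kept members of a list, and a fixed set of landmark genes and enzyme forms; other members named are examples chosen after their values were seen. Some genes that this rule names are not reported here. The 75th percentile signals were 981 on the FAO array and 243 on the liver array, and 0 gene spots were saturated. The calling rule was tested on simulated data, with 8-fold changes and spot noise added to bright probes of the control liver array. Such changes exceed the 4-fold line by design, so this checks the code only. Dim probes and bounds were not covered. Alternatives were other scalings, normexp background correction (limma 3.58.1, R 4.3.3; on median signals, since the mean signal was not used here), stricter and looser detection, 2-fold and 8-fold thresholds, other probe summaries and other array pairs. Python 3.11.15, numpy 2.4.6, pandas 2.3.3 and matplotlib 3.10.9 were used.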

Additional observations from a re-analysis of the deposited data

Results flagged for a closer look

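Hepcidin (Hamp) was singled out because its difference ran in opposite directions in the array pairs: -6.83 for untreated FAO cells against control liver and 3.68 for deferoxamine-treated FAO cells against iron-free liver. Its level was 1.60 in untreated FAO cells and 182 in control liver, and 2.71 in deferoxamine-treated FAO cells and 0.211 in iron-free liver. This difference between the pairs was not tested, since each group has 1 array.

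The iron-free liver array was singled out because genes of the cell line were well above background on it. All 25 genes chosen as bright in deferoxamine-treated FAO cells and not well above background on control liver or kidney were so, at a median of 6.35% of their FAO level. The other tissue arrays give no contrast for these genes, since low levels there were the condition for choosing them. The source of the signals was not tested.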

How the results depend on the processing

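No paired analysis was possible because each group has 1 array and the labels give no replicate numbers. The 1040 genes called higher became 2018 with arrays set to the median of detected probes, 1670 with housekeeping scaling, 657 with normexp, 454 with detection required on both arrays, 2746 at 2-fold and 412 at 8-fold. The 1870 called lower became 954 with detection on both arrays, 3080 at 2-fold and 1093 at 8-fold. The share of liver-enriched genes called lower, 80.6%, became 67.2% with the detected-probe median, 67.7% with detection on both arrays, 89.8% at 2-fold and 68.4% at 8-fold. The share of kidney-enriched genes called higher, 21.0%, became 34.4% with sets chosen on the control arrays (an alternative chosen after seeing the data), 32.9% with the detected-probe median, 27.7% with housekeeping scaling, 10.5% with normexp, 37.1% at 2-fold and 10.9% at 8-fold. The share of called genes called the same way by the second pair, 74.5%, became 87.8% with control liver in place of iron-free liver (also chosen after seeing the data), 62.1% with the detected-probe median, 77.2% with housekeeping scaling, 66.4% with normexp, 71.5% with detection in at least 0.5 of the spots, 64.0% with detection on both arrays, 79.0% at 2-fold and 77.3% at 8-fold. The thresholds and detection rules change these values by construction; the cause of the other changes was not tested. Of 276 named genes 188 were called, 146 of these were called the same way under all alternatives, and 1 turned its sign: Hamp, at 2.92 for untreated FAO cells against iron-free liver. Of the genes the report names as called, A2m, Abcc4, Ak4, Anxa2, Apoe, Asl, Cat, Cd55, Cdh17, Cdkn1a, Cyp27a1, F2, Gjb1, Gpc3, H19, Hpx, Mgarp, Mvd, Myc, Ndufa1, Nes, Nr1h4, Pfkl, Prdx3, Reg3b, Scarb1, Scd, Sdc1, Slc7a11, Sqle, Tuba1b, Tuba1c, Tubb5, Txnrd1 and Uqcrq fell short of 4-fold under at least 1 alternative and kept their sign. Against iron-free liver Hal and Cpt1a, which were not called, stood at 0.36 and 0.09. Of the 39 list medians 22 were at least 1 in size and kept their sign under the alternatives, and 11 lists turned sign in some. Background limits the dim side: 589 of the genes called higher and 920 of those called lower are bounds.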
